A study of Mus musculus with 2 samples.

Results

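Exon peaks are the regions of open chromatin that the authors' annotation placed in an exon of a gene. They were chosen by that annotation alone, and 1225 of the 58076 peaks in the deposited table carried it, which is 2.11%. Of these, 819 lay in an internal exon, 383 in the last exon and 23 in the exon of a transcript with a single exon. No peak was annotated to the first exon of a transcript with several, and the exon peak nearest to an annotated transcription start was 3002 bp from it. The annotation has promoter classes that reach 3 kb from a start, and separate classes for UTRs. Peaks near starts or in UTRs thus carry other labels, and the share of exon peaks and the lack of first exons depend on this. All 1225 entered every count below, since no filter on low values was applied.

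The peaks come from an ATAC-seq study of the mouse heart, an assay that marks open DNA in nuclei through cuts made by the Tn5 transposase. It asked how chromatin accessibility differs when the heart lacks Ythdc1, a nuclear protein that binds N6-methyladenosine on RNA. There was 1 library from Ythdc1 CKO mice, the cardiac knockout, and 1 from Ythdc1flox/flox mice, the floxed control, both on normal chow and 15 days of age. The sources used here do not give the number of animals behind each library or the Cre line that made the deletion.

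Most open chromatin of a mammalian genome lies at promoters and at enhancers in introns and between genes. Exons are short and mostly protected by nucleosomes, so open exons are few, and where they occur they can be enhancers that overlap coding sequence, starts of other transcripts or antisense RNAs, or exons within a broadly open gene body. An exon peak is named here for the gene that owns the exon, which need not be the gene it acts on.

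With 1 library per genotype there is no spread between animals, so every difference below is between these 2 libraries and no test across animals was possible. The peaks held 6466537 counts in the CKO library and 6755590 in the control library. A log2 ratio is that of CPM (counts scaled to a fixed sum over all peaks) in CKO over control with 0.5 counts added in each, and a 2-fold difference is a rule of size. A ratio is given without added counts, with its exact Clopper-Pearson 95% interval, which covers counting error only. In bulk tissue, fewer cells of a type and less open chromatin per cell cannot be told apart. At promoters, all 8 cardiomyocyte markers had a peak, with 2449 counts summed in CKO and 2916 in control. They did not move together. Tnnt2 (457 in CKO, 419 in control) and Gata4 (316 in CKO, 310 in control) were higher in CKO, and Myh6 had a log2 ratio of -0.013. Actc1, Nkx2-5, Tbx20, Ryr2 and Pln were lower, at log2 ratios from -1.19 to -0.22. All 5 endothelial markers had a promoter peak, with 837 counts in CKO and 693 in control, as had all 4 fibroblast markers, with 560 in CKO and 484 in control. Of the fibroblast markers, Pdgfra had 370 counts in CKO and 272 in control, while Dcn (19 in CKO, 34 in control) and Col1a1 (100 in CKO, 115 in control) were lower in CKO. For mural cells 3 of 4 markers had a promoter peak (304 counts in CKO, 241 in control), Rgs5 having none, and for neurons 1 of 2 (27 in CKO, 28 in control). No marker of myeloid cells, skeletal muscle, liver, lung or adipocytes had one. The promoter peak of Ythdc1 held 314 counts in CKO and 358 in control. Ythdc1 had no exon peak, and the sources used here do not name the deleted exons, so these counts do not check the labels.

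Some exon peaks sit on transcription starts that the authors' annotation did not use. The RefSeq promoter windows, which run from 250 bases before to 50 bases after a start, were touched by 18 of the 1225 exon peaks, and most of these starts belong to predicted genes that overlap the exon or own it. Their 18 peaks had a median log2 ratio of -0.05, against -0.041 in the 1207 others. The 3 windows shown here were picked after their values were seen. They are a start of a coding gene inside that gene's own exon peak, a start of an opposite-strand gene at an annotated last exon of its partner, and the window whose peak had the lowest ratio of the 18. All are from RefSeq on build GRCm38.p6, 5′ to 3′ on the strand of the gene named, and capitals mark a GC box (GGGCGG or its complement CCGCCC) or a CCAAT box (CCAAT or its complement ATTGG).

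Ece1, chr4:137920543-137920842, plus strand: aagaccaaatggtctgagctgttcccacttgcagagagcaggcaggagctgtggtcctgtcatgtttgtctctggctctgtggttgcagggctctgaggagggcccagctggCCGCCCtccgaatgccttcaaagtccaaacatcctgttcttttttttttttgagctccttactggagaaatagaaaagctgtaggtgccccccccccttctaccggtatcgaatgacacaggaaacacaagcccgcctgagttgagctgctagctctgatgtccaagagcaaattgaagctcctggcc
Zfp286os, chr11:62756570-62756869, plus strand: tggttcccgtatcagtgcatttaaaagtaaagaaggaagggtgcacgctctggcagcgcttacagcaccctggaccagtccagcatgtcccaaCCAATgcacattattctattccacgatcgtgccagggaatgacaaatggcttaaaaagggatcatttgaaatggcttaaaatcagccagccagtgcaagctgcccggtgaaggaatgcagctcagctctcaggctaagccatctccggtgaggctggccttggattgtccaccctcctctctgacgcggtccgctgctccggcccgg
Gm31458, chr15:28066553-28066852, minus strand: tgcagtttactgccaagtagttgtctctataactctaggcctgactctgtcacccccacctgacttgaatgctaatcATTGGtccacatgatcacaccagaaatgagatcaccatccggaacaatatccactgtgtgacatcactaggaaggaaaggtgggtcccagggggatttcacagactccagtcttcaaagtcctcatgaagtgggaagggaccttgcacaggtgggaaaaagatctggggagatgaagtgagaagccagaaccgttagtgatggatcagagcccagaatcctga

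All 300 bases of the window of Ece1, the endothelin-converting enzyme, lay in a peak annotated to exon 2 of 3, which had 254 counts in CKO and 220 in control. The window of Zfp286os, the opposite-strand partner of the zinc finger gene Zfp286 by its name, shared 188 bases with a peak in exon 2 of 2 of Zfp286. That peak had 297 counts in CKO and 327 in control. The window of Gm31458, a noncoding gene, shared 265 bases with a peak in its own exon 3 of 6. That peak had 12 counts in CKO and 50 in control, a ratio of 0.251 (0.122 to 0.477), and was called in control alone. Of the 18 windows, 2 held a TATA box (TATAAA), 6 a CCAAT box and 2 a GC box on either strand, with matches to different motifs counted separately. Among all 32851 RefSeq windows, 13.6% held a TATA box, 37.4% a CCAAT box and 35.7% a GC box. The median number of CG pairs was 5 in the 18 windows and 7 in all. A match is a description of these letters and says nothing of a factor bound there.

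Exon peaks were like other peaks outside promoters in size and signal. Their median width was 318 bp, against 305 bp for intron, 317 bp for distal intergenic and 577 bp for promoter peaks within 1 kb of a start, and widths ran between 200 and 1882 bp. The median exon peak had 52 counts in CKO and 55 in control, the median intron peak 46 in CKO and 51 in control, and the median promoter peak 135 in CKO and 144 in control. Together they held 86935 counts in CKO, 1.34% of the counts in peaks, and 90989 in control, 1.35%. The 1225 peaks lay in the exons of 1100 genes, of which 1002 had 1 exon peak, 83 had 2 and 15 had 3 or more. A symbol was found for 1131 of the peaks, 962 of them in protein-coding genes and 158 in long noncoding RNA genes. The median exon number of internal exon peaks was 7, and their median transcript had 15 exons. Last exon peaks belonged to short transcripts, since 198 of the 383 (51.7%) were in transcripts of 2 or 3 exons. The exon number is that of the transcript the annotation used, and another transcript of the same gene can number the same exon differently. A last exon is thus the last of that transcript and need not be the end of the gene.

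Of all 58076 peaks, 6.09% were at least 2-fold higher in CKO and 8.96% at least 2-fold lower, 15.0% in either direction. Among exon peaks, 84 (6.86%) were higher and 122 (9.96%) lower, 16.8% in either direction, shares close to those of all peaks. The median log2 ratio of the exon peaks was -0.041, against -0.052 for all peaks. It had the opposite sign, 0.011, when ratios were centred on the median of all peaks or scaled by edgeR's TMM factors, so the direction of the class as a whole depends on the scaling. The middle 50% of exon peaks ran from -0.52 to 0.40, and single peaks from -2.85 to 2.67. The exact interval lay above 1 in 234 exon peaks (19.1%), below 1 in 258 (21.1%) and held 1 in 733. For all peaks those shares were 17.7% above and 21.7% below. Of the exon peaks past 2-fold, 40.8% were the higher ones. This share was 23.1% on the scale of the authors' RPM, which moves the median of all peaks by -0.17, and 65.1% after a loess trend of ratio on signal was removed.

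**Figure D1:**
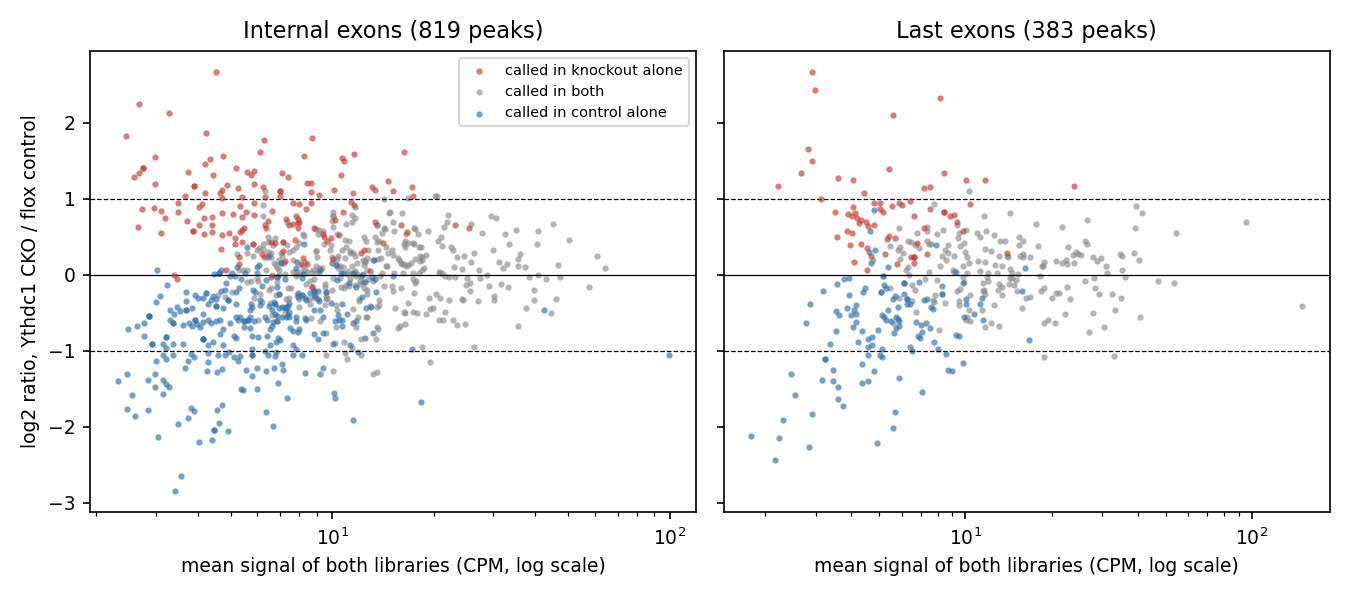
Log2 ratio of CKO to floxed control (y axis, 0.5 counts added) against mean signal of both libraries in CPM (x axis, log scale) for 819 internal and 383 last exon peaks, 1 point per peak, coloured by the library in which it was called, with dashed lines at 2-fold. Peaks called in both libraries gather near 0, and those called in 1 library alone lie on that library's side, with the widest scatter at low signal.

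By position, internal exons had 64 of 819 peaks higher (7.81%) and 86 lower (10.5%), and last exons had 19 of 383 higher (4.96%) and 34 lower (8.88%). The single-exon class had 1 of 23 higher and 2 lower. The median was -0.041 for internal, -0.027 for last and -0.11 for single exons. Intron peaks, the class nearest to them in location, had 7.66% of 17047 higher and 12.6% lower with a median of -0.13, and the 788 peaks in 3′ UTRs had 8.25% higher and 9.90% lower with a median of -0.027. Promoter peaks within 1 kb of a start stood furthest from exon peaks, with 2.70% higher and 2.87% lower.

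**Figure D2:**
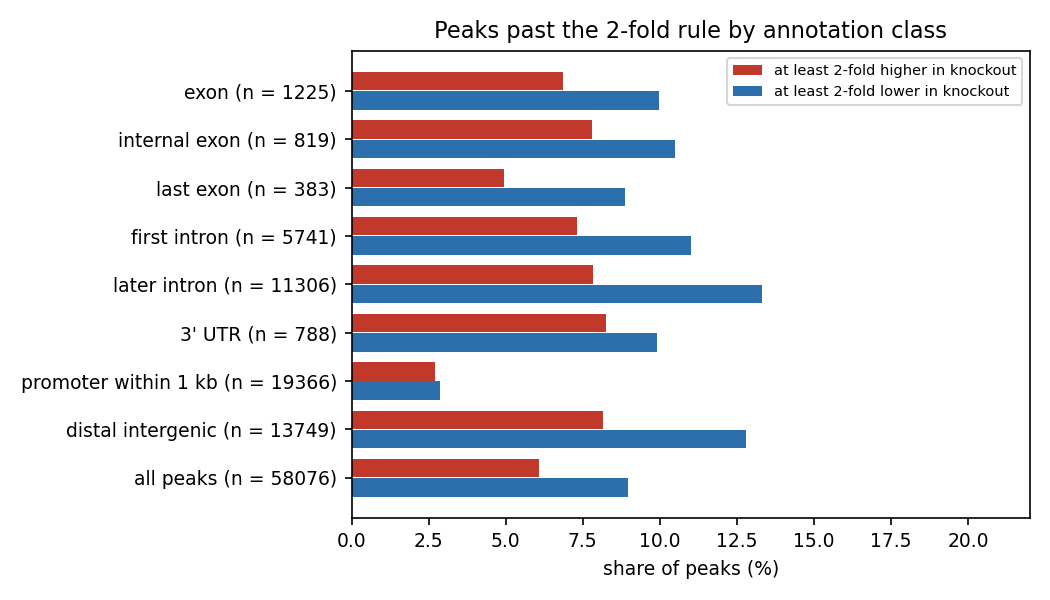
Share of peaks (x axis, %) at least 2-fold higher and at least 2-fold lower in CKO than in floxed control, by annotation class (y axis, number of peaks in brackets). Exon peaks, with 6.86% higher and 9.96% lower, sit between intron and promoter peaks in the share that was lower.

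Whether an exon peak passed 2-fold followed the library it was called in. Both libraries called 576 exon peaks (47.0%), CKO alone 224 (18.3%) and control alone 425 (34.7%), while of all peaks both called 55.0%, CKO alone 15.9% and control alone 29.1%. Of the 224 called in CKO alone, 78 were at least 2-fold higher and 0 lower, and of the 425 called in control alone, 0 were higher and 112 lower. A peak called in 1 library is selected for a high count there, so these sides are set by the calling. Among the 576 called in both, 6 (1.04%) were 2-fold higher and 10 (1.74%) lower, and the median was 0.063, with 57.3% of peaks above 0. Over all peaks called in both, the median was 0.0091 and 51.3% were above 0. Peaks in 3′ UTRs called in both had a median of 0.044, with 56.8% above 0, and distal intergenic peaks 0.036, with 53.4%. Intron peaks had 0.016, with 51.7%, and promoter peaks within 1 kb -0.0086, with 48.5%.

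The median ratio of exon peaks was higher in stronger peaks, as it was for intron peaks and for all peaks. The exon peaks were split into quartiles by mean signal, at 5.35, 8.0 and 12.8 CPM, and other classes were binned at the same bounds. From the weakest to the strongest quartile, the median log2 ratio of exon peaks was -0.39, -0.076, 0.0092 and 0.10, and the share above 0 was 35.9%, 45.8%, 51.0% and 58.3%. All peaks gave -0.34, -0.11, -0.037 and 0.0035, and intron peaks -0.41, -0.17, -0.06 and 0.011. The calling differed along the quartiles too. In the weakest, control alone had called 65.7% of exon peaks, CKO alone 31.4% and both 2.94%. In the strongest, these shares were 4.89%, 6.19% and 88.9%. The part of the calling in this trend was not tested. In the strongest bin the exon median lay above that of all peaks. It was 0.16 against 0.055 with median centring or TMM factors and -0.068 against -0.17 on the RPM scale. These 3 scalings move all peaks by nearly the same amount, so they could not change this order and are not separate evidence. The exon median was 0.10 against 0.0052 with 5 counts added and 0.099 against -0.0021 with the loess trend removed. The bin has no upper bound, and the median signal in it was 18.5 CPM for exon peaks and 32.5 CPM for promoter peaks. Peaks of that bin in 3′ UTRs (19.5 CPM) and between genes (18.9 CPM) also had medians above that of all peaks, 0.057 and 0.048. The share of exon peaks past 2-fold was 35.0% in the weakest quartile and 6.84% in the strongest, against 36.9% and 2.84% of all peaks in the same bins. In the strongest bin, 5.88% of intron, 5.65% of 3′ UTR and 5.49% of distal intergenic peaks were past 2-fold, while promoter peaks, 12946 of the 21984 in that bin, had 0.896%.

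**Figure D3:**
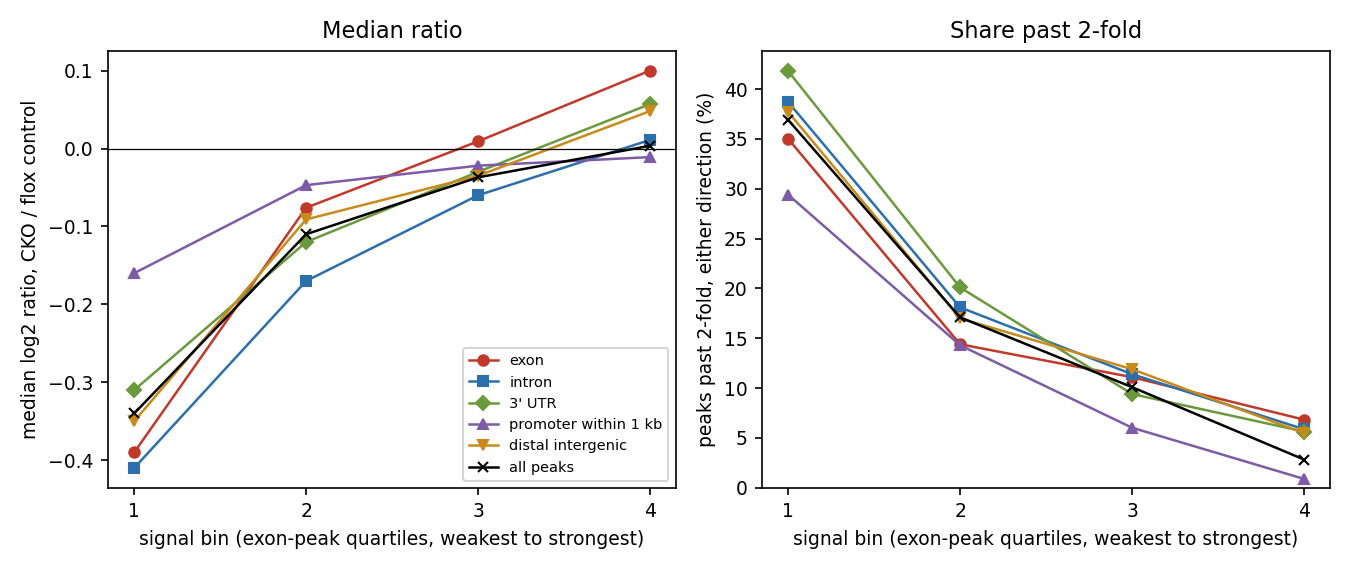
Median log2 ratio of CKO to floxed control (left, y axis) and share of peaks past 2-fold in either direction (right, y axis, %) in 4 bins of mean signal bounded by the exon-peak quartiles (x axis), 1 line per annotation class. Exon peaks have a median of 0.10 in the strongest bin, above the 0.0035 of all peaks.

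Pooled over genes, internal exon peaks differed by exon number. Peaks in exon 2 had a median log2 ratio of 0.031 (101 peaks, 56.4% above 0), and peaks in exon 21 or later a median of -0.23 (104 peaks, 34.6% above 0). The exons between had medians of -0.02 (exons 3 to 5, 221 peaks), -0.043 (exons 6 to 10, 231 peaks) and -0.031 (exons 11 to 20, 162 peaks). Of the peaks in exon 21 or later, CKO alone had called 9.62% and control alone 45.2%. Exons numbered so high occur only in genes with many exons, and such genes differed. In these exons all peaks of Dst were below 0, those of Syne1 and Fry were above 0, and those of Macf1 and Ttn lay on both sides. Early and late exons of the same genes were not compared. Exon peaks 20 kb or more from the nearest start had a median of -0.13, and 40 of those 250 (16.0%) were at least 2-fold lower, while 16 (6.40%) were higher. The widest 409 exon peaks had a median of 0.029 and the narrowest 408 a median of -0.16. Long noncoding RNA genes held wider exon peaks, with a median of 391 bp against 310 bp in protein-coding genes, and 57.6% of them were called in both libraries against 44.8%. The median ratios of these gene kinds were -0.024 and -0.031. By chromosome, with unplaced sequences left out, exon medians ran from -0.30 on chromosome 1 (71 peaks) to 0.17 on chromosome 18 (45 peaks). The medians over all peaks of these chromosomes were -0.093 and -0.087. Chromosome 11 held the most exon peaks, 126, which is 3.03% of its peaks.

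The named peaks below are those with mean signal at or above the exon median and the highest or lowest ratios in each exon class. Peaks without a symbol and predicted genes (Gm and Rik names) were left out of this choice. The counting intervals do not allow for a choice by ratio. The highest internal exon peaks were in genes of varied function. A peak in exon 9 of 11 of Rcc1l, whose product is a mitochondrial RCC1-like protein (chr5:134155865-134156227), had 88 counts in CKO and 26 in control, a ratio of 3.54 (2.26 to 5.71). A peak in exon 13 of 14 of Eng, the endothelial TGF-β co-receptor endoglin (chr2:32680081-32680394), had 160 counts in CKO and 54 in control, a ratio of 3.10 (2.26 to 4.30). The strongest promoter peak of Eng had a log2 ratio of 0.004. Nxn, which encodes the redox protein nucleoredoxin, had 113 counts in CKO and 39 in control in exon 7 of 8 (ratio 3.03). Rnf157 and Hectd4, both encoding E3 ubiquitin ligases, had 80 and 103 counts in CKO against 28 and 37 in control. All 5 were called in CKO alone.

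The lowest internal exon peaks were all called in control alone. Fsd2, which encodes a protein with fibronectin type III and SPRY domains, had 31 counts in CKO and 123 in control in exon 10 of 13 (chr7:81542091-81542487), a ratio of 0.263 (0.172 to 0.393). Zbtb20, a zinc finger transcriptional repressor, had 56 counts in CKO and 189 in control in exon 14 of 15 (chr16:43610315-43610983), a ratio of 0.310 (0.225 to 0.419). The other 3 were in the kinesin gene Kif28 (32 counts in CKO, 104 in control), in Crocc2 of the ciliary rootlet coiled-coil family (33 in CKO, 102 in control) and in Vwa3a (34 in CKO, 89 in control). The promoter peaks of Fsd2 and Zbtb20 were also below 0, at log2 ratios of -0.48 and -0.35, while that of Vwa3a was at 0.28.

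Above the same signal bound, the last exon peaks named here had ratios between 0.413 and 2.55. Below it the ratios ran wider, and the highest of all exon peaks was of this class. It lay in exon 2 of 2 of a transcript of Col4a3, a basement membrane collagen, with 33 counts in CKO and 5 in control. Zfp532, a zinc finger gene, had 78 counts in CKO and 32 in control in exon 2 of 2, a ratio of 2.55 (1.67 to 3.97). Myom2, which encodes the M-band protein myomesin 2, had 107 counts in CKO and 47 in control in exon 6 of 6 (chr8:15071751-15071957), a ratio of 2.38 (1.67 to 3.43), with its promoter at a log2 ratio of 0.35. Cd300lg, a surface protein of vascular endothelium, had 214 counts in CKO and 99 in control in exon 6 of 6 (ratio 2.26). Irx3os, the RNA opposite Irx3, had 91 counts in CKO and 44 in control in exon 2 of 2 (ratio 2.16), and was the only one of these 4 called in both libraries. The lowest were in Wdr45b, an autophagy gene (34 counts in CKO, 86 in control), Plaat3, a phospholipase and acyltransferase (33 in CKO, 83 in control), and Tmem11 of the mitochondrial inner membrane (39 in CKO, 92 in control). The fourth was Snx30, a sorting nexin called in both libraries, with 78 counts in CKO and 173 in control and a ratio of 0.471 (0.356 to 0.619). Of these genes Eng and Cd300lg are endothelial, and the summed promoter counts of endothelial markers, given above, were higher in CKO. Kdr was the exception among those markers, with 183 promoter counts in CKO and 200 in control, and the promoter of Cd300lg itself had a log2 ratio of -0.37. The other endothelial markers with exon peaks, Tek, Vwf and Kdr, had mean exon log2 ratios below 0, at -0.37, -0.18 and -0.071. The part of cell makeup in these peaks was not tested.

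**Figure D4:**
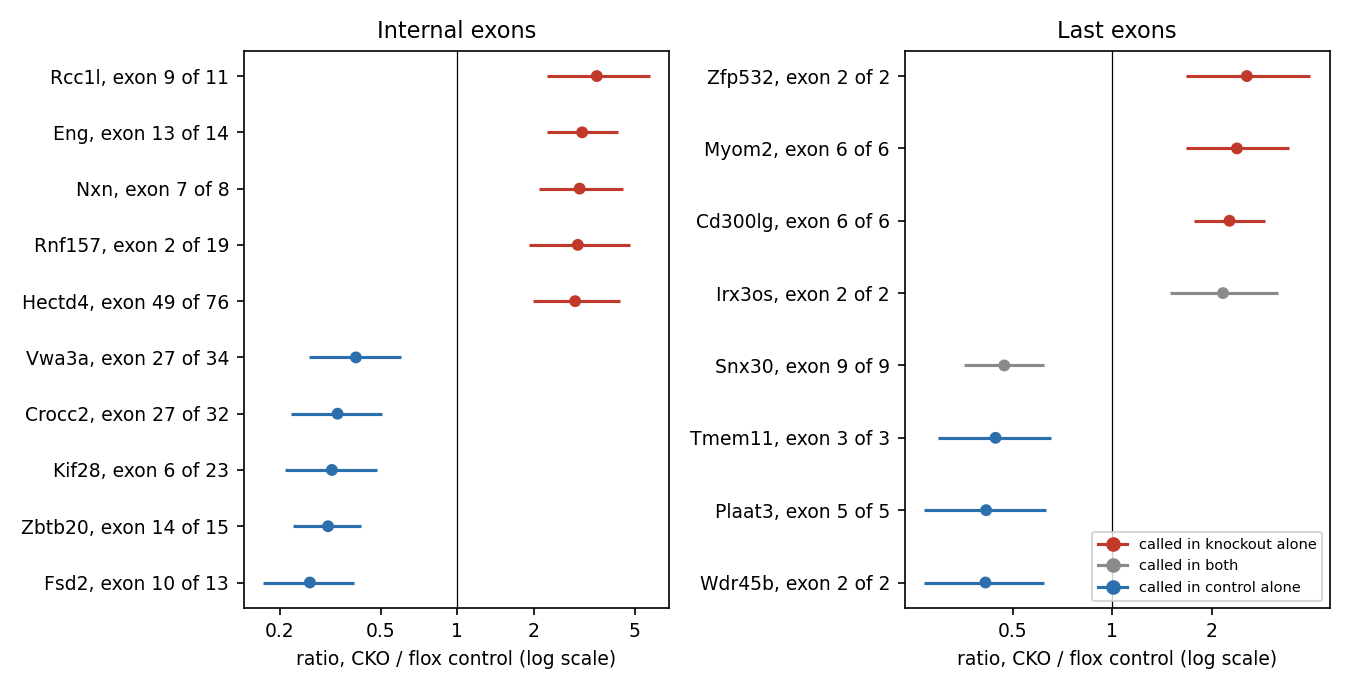
Ratio of CKO to floxed control (x axis, log scale) with its exact 95% counting interval for the highest and lowest named internal (left) and last (right) exon peaks, coloured by the calling library. The intervals of all 18 peaks leave out 1, but the peaks were picked by these same counts, so this is not separate evidence. Of these peaks only those in Irx3os and Snx30 were called in both libraries.

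In the single-exon class, the highest peak was in Neat1, the long noncoding RNA of paraspeckles. It had 220 counts in CKO and 100 in control, a ratio of 2.30 (1.81 to 2.94), at chr19:5839771-5840004. A second Neat1 peak, named after its values were seen, had 331 counts in CKO and 189 in control, a ratio of 1.83 (1.53 to 2.20). Both were called in CKO alone and above 1 with every scaling run. Those settings moved the median of all peaks only by -0.17 to 0.058, so the kept side is not separate evidence. Fabp4, a fatty acid binding protein of adipocytes and capillary endothelium, followed with 109 counts in CKO and 59 in control (ratio 1.93). Among single-exon peaks with a symbol and signal at or above the exon median, the lowest were in Kcnq1ot1, an imprinted antisense RNA, with 69 counts in CKO and 89 in control, and in Cyth3, with 60 in each library, and both intervals held 1. Kcnq1ot1 had another exon peak, at a log2 ratio of 0.92, and its 2 peaks together held 113 counts in each library. The 2 single-exon peaks at least 2-fold lower were outside that rule and are given after their values were seen. A peak in a gene with no symbol (chr1:134823172-134823610) had 40 counts in CKO and 142 in control, a ratio of 0.294 (0.202 to 0.421). A peak annotated to a single-exon transcript of Ank3, an ankyrin gene, had 12 counts in CKO and 38 in control (ratio 0.330, 0.157 to 0.645). Both were called in control alone. Another exon peak of Ank3 had a log2 ratio of 0.41.

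The 8 strongest exon peaks were taken among genes with a symbol other than Gm and Rik names. The strongest of all was in Tpm1, which encodes the tropomyosin of heart muscle thin filaments. This peak of 1882 bp in exon 8 of 8 (chr9:67024516-67026397) had 835 counts in CKO and 1157 in control, a ratio of 0.754 (0.689 to 0.825), and the promoter of Tpm1 was also lower, at a log2 ratio of -0.31. Ldb3, a PDZ-LIM protein of the Z-disc, had 418 counts in CKO and 908 in control in exon 6 of 14 (chr14:34567350-34568260), a ratio of 0.481 (0.427 to 0.541). A second Ldb3 peak, in exon 10, had 246 counts in CKO and 194 in control and a ratio of 1.32 (1.09 to 1.61), so the pair lay on opposite sides of 1. Of the other 6, Dock6, a guanine nucleotide exchange factor, had 378 counts in CKO and 286 in control (ratio 1.38, 1.18 to 1.62), and Btd, which encodes biotinidase, had 427 in CKO and 374 in control (ratio 1.19). Prdm2, Junos, Afap1l1 and Zfp286 had ratios between 0.925 and 1.06, and their intervals held 1. Predicted genes left out of these 8 held 3 peaks as strong, in Gm39465 (764 counts in CKO, 493 in control, ratio 1.62, 1.44 to 1.82), 4930578M01Rik (417 in CKO, 297 in control) and Gm30420 (351 in CKO, 410 in control). Strength here is CPM per peak, not corrected for peak width.

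Several very long genes held more than 1 exon peak. Ttn, which encodes the giant sarcomere protein titin, held 10, the most of any gene, with 915 counts summed in CKO and 843 in control. Its peaks ran from a log2 ratio of -0.23 to 1.21 with a mean of 0.21, 6 above 0 and 4 below. A single Ttn peak stood apart, in exon 140 of 192 (chr2:76761021-76761269), with 78 counts in CKO and 35 in control and a ratio of 2.33 (1.54 to 3.58). The other 9 had 70 to 153 counts in CKO and 74 to 118 in control, and 8 of their intervals held 1. On the RPM scale, 5 Ttn peaks were above 0 and 5 below, and with median centring or TMM factors 8 were above and 2 below.

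The cytoskeletal linker genes Dst and Macf1 held 5 exon peaks each. All 5 Dst peaks were below 0, at log2 ratios from -0.96 to -0.14, with 218 counts in CKO and 294 in control. For Macf1 4 of 5 were below 0, with 226 counts in CKO and 318 in control. Of the 14 genes with a symbol and 3 or more exon peaks, Dst was the only one with all below 0, and Fry and Syne1 were the 2 with all above. Fry, which encodes a microtubule-binding protein, had 342 counts in CKO and 235 in control, with a mean log2 ratio of 0.70. Syne1, which encodes nesprin-1 of the nuclear envelope, had 255 counts in CKO and 196 in control, with a mean of 0.69. Of the Dst intervals only that of exon 59 left out 1 (0.246 to 0.986), and those of Fry exon 7 and Syne1 exon 55 held 1. These 3 genes were picked because all their peaks lay on 1 side. They kept that side under the 5 other scalings and added counts tried. Those settings moved the median of all peaks only by -0.17 to 0.058, so the kept side is not separate evidence. Among the 76 genes with exactly 2 exon peaks, 20 had both above 0, 20 both below and 36 had 1 on each side. Mrnip, a DNA repair gene named after its values were seen, had 76 and 104 counts in CKO against 34 and 38 in control, both peaks called in CKO alone.

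**Figure D5:**
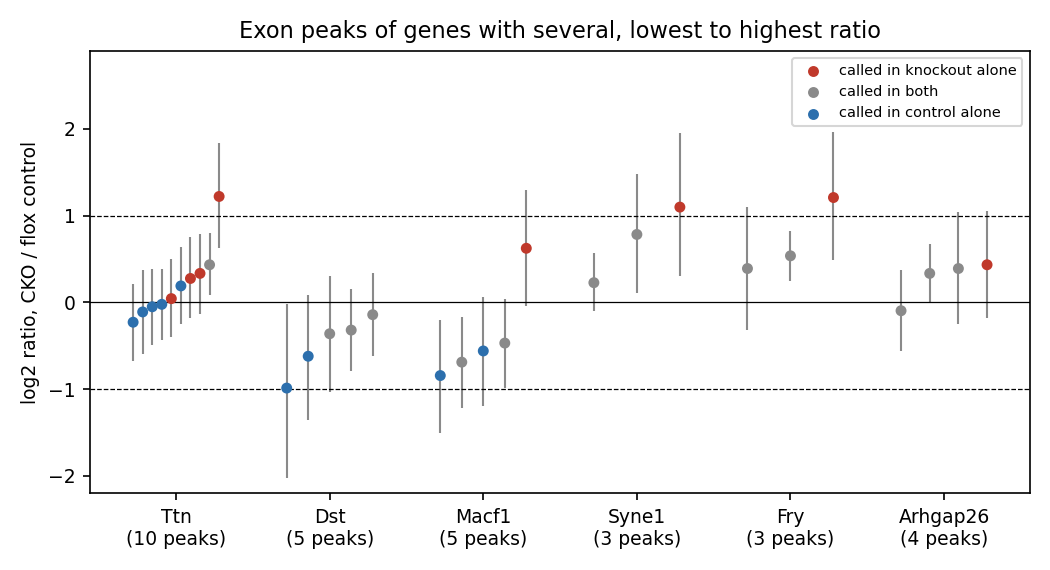
Log2 of the ratio of CKO to floxed control (y axis, no counts added) with its exact 95% counting interval for each exon peak of Ttn, Dst, Macf1, Syne1, Fry and Arhgap26 (x axis), sorted by ratio within a gene and coloured by the library in which it was called. All 5 Dst peaks lie below 0, all 3 of Syne1 and of Fry above, and the 10 of Ttn lie on both sides.

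The lists of heart and cell type genes held few genes with an exon peak, so each is described by its members. Over the whole series, 926 of the 18538 identifiers matched to a symbol by position owned an exon with a peak. Whether a list held more or fewer such genes than this was not tested. Over all 1015 named genes with an exon peak, the median of gene means was -0.036, and 72 were 2-fold higher and 95 lower. Of 27 sarcomere and Z-disc genes, 7 had an exon peak, with a median of -0.13 and 1 gene 2-fold higher, Myom2, and 0 lower. Beside Myom2, Tpm1, Ldb3 and Ttn, Tnnt2, cardiac troponin T, had 246 counts in CKO and 213 in control in exon 3 of 3 of the annotated transcript. The kinase gene Alpk3 had 139 and 120 counts in CKO against 182 and 156 in control in exons 4 and 5.

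Exon peaks were present in 4 of 20 genes for calcium handling or ion channels. Both peaks of Slc8a1, the sodium-calcium exchanger, were higher in CKO, with 181 and 56 counts in CKO against 109 and 26 in control and ratios of 1.73 (1.36 to 2.22) and 2.25 (1.39 to 3.73). Its intron peaks, 18 in number, had a median log2 ratio of 0.66. Ryr2, the calcium release channel of the sarcoplasmic reticulum, split. Its peak in exon 90 had 75 counts in CKO and 155 in control, and its peak in exon 37 had 108 in CKO and 71 in control. Camk2d, a calcium-dependent kinase, had 57 counts in CKO and 58 in control.

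Of 15 cardiac transcription factors, 2 had exon peaks. Tbx20 had 88 counts in CKO and 48 in control in exon 6 of 6 of the annotated transcript, a ratio of 1.92 (1.33 to 2.78). Its promoter peak had a log2 ratio of -0.22. Gata4 had 51 and 65 counts in CKO against 59 and 71 in control, and both intervals held 1.

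Among 24 extracellular matrix genes, 5 had an exon peak, with a median of -0.087 that became 0.065 with the loess trend removed. Col3a1, a fibrillar collagen, had 26 counts in CKO and 10 in control (ratio 2.72, 1.27 to 6.31), and Fbn1, fibrillin 1, had 169 in CKO and 114 in control (ratio 1.55, 1.21 to 1.98). Hspg2, the basement membrane protein perlecan, had 63 counts in CKO and 113 in control (ratio 0.582, 0.421 to 0.800), and the intervals of Mmp2 and Tnxb held 1. Of 15 endothelial markers, 4 had exon peaks, with a median of -0.12 that became 0.032 with the loess trend removed and 0.14 when each gene was taken by its strongest exon peak. Apart from Eng, Tek had 3 peaks with a mean of -0.37, Vwf a mean of -0.18 and Kdr 2 peaks with a mean of -0.071. Of 9 mural cell markers only the receptor gene Notch3 had exon peaks, 3 in number, with 222 counts in CKO and 325 in control.

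The other lists had 1 or 2 genes each or none. Synpo, an actin-associated protein, had 340 counts in CKO and 202 in control (ratio 1.76, 1.47 to 2.10), and Tln2, talin 2, had 34 in CKO and 60 in control (ratio 0.592). The coactivator gene Crebbp had 34 and 26 counts in CKO against 19 and 16 in control, and the methyltransferase gene Kmt2d had 33 in CKO and 51 in control. Rbm20, a splicing regulator of Ttn, had 2 peaks in exon 2, with 59 and 71 counts in CKO against 88 and 91 in control. Lhx2 had 23 counts in CKO and 29 in control. Exon peaks were found in 1 of 5 adipocyte markers, Fabp4, and in 0 of 10 fetal and stress genes of the heart, 0 of 9 fibroblast, 0 of 9 myeloid and lymphoid and 0 of 9 skeletal muscle markers. They were also found in 0 of 6 epithelial and lung markers, 0 of 14 genes of N6-methyladenosine and 0 of 16 immediate early genes.

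Exon peaks were also set beside the promoter and introns of the same gene. Over 760 genes with both, the mean exon log2 ratio and that of the strongest promoter peak had the same sign in 51.4%, with a Pearson r of -0.0026 and a Spearman rho of 0.02 across genes, which share the 2 libraries and are not independent replicates. Among these promoters, 10 of 760 (1.32%) were 2-fold higher and 12 (1.58%) 2-fold lower. Of 58 genes with exon peaks at least 2-fold higher, 0 had a promoter 2-fold higher, and of 69 at least 2-fold lower, 1 had a promoter 2-fold lower. Over 588 genes, the median intron ratio gave an r of 0.18 and a rho of 0.15 with the exon mean. Where exon peaks were at least 2-fold lower (59 genes) the introns had a median of -0.35, and where they were at least 2-fold higher (40 genes) a median of 0.14, against -0.13 over all. Over the 325 genes whose exon peaks were all called in both libraries, r with the promoter was 0.15, and over the 246 with intron peaks, r with the introns was 0.085. The order of the 2 relations thus turned with the choice of peaks, and their difference was not tested.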

How the data were processed

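ATAC-seq libraries from hearts of Ythdc1 CKO and Ythdc1flox/flox mice were grouped by the genotype label. BWA, MACS2 and build GRCm38.p6 are listed in the submitters' processing notes. The sources used here do not give read filters or the unit counted. The deposited table holds whole-number counts per merged peak, per the file headers, and a mark for the library that called it. The authors' RPM equals (count + 1) times 0.01822 in CKO and 0.01965 in control. The authors' fold enrichment, a ratio, was used as a filter, and their deposited log2 fold change equals the log2 RPM ratio. Coordinates are those of the table.

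Counts were scaled by column sums with 0.5 added (Python 3.11.15, pandas 2.3.3, scipy 1.17.1) and tested on simulated data. TMM factors came from edgeR 4.0.16. The depth was 6466537 counts in peaks in CKO and 6755590 in control. Alternatives were other scalings, filters on counts and calling, 5 added counts and a 1.5-fold rule. The table has Ensembl identifiers, so symbols were matched by position to RefSeq spans on GRCm38.p6 (18538 of 24480 identifiers, 75.7%), and 96 exon peaks took the single RefSeq gene around them.

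The class, the lists and the markers were chosen with earlier results of these data known. Peaks are named by a rule: with mean CPM at or above the exon median, with a symbol and without Gm and Rik genes, the 5 highest and 5 lowest internal and the 4 highest and 4 lowest last exon peaks. The rule adds the 8 strongest peaks (here also without Gm and Rik genes), the 2 highest and 2 lowest single-exon peaks, the 5 genes with most peaks (Afap1l1, the first by name of those with 3, is the fifth), genes with 3 or more peaks on 1 side of 0, and up to 3 members of each list. Other members of the lists and the windows with sequences were chosen after their values were seen. Some members of the lists are not reported here.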

Additional observations from a re-analysis of the deposited data

How the results depend on the processing

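The exon median of -0.041 became 0.011 with median centring and with TMM factors, -0.21 on the RPM scale, 0.049 with the loess trend removed, 0.035 for peaks with at least 100 counts and 0.063 for peaks called in both libraries. Internal exons gave 0.011, 0.011, -0.21, 0.046, 0.035 and 0.063 under the same 6 settings, and last exons -0.20 on the RPM scale and 0.088 for peaks called in both. The 84 exon peaks 2-fold higher became 48 on the RPM scale, 30 with at least 100 counts, 6 when called in both, 43 at a fold enrichment of at least 10 and 215 by a 1.5-fold rule; the 122 lower became 67 with the loess trend removed, then 26, 10, 49 and 276 under the last 4 of these settings. Internal exons had 34, 23, 5, 34 and 146 higher and 46, 19, 8, 39 and 192 lower under the same settings. Last exons had 38 higher and 19 lower with the loess trend removed, 6 and 6 with at least 100 counts, 1 and 2 when called in both, 8 and 9 at a fold enrichment of at least 10 and 64 and 80 by the 1.5-fold rule. On the RPM scale 160 exon peaks were 2-fold lower, and with the loess trend removed 125 were 2-fold higher. Of all peaks, 2326 were higher and 7129 lower on the RPM scale, and 5133 higher and 2944 lower with the loess trend removed. The filters left 659 exon peaks with at least 100 counts, 576 called in both and 618 at a fold enrichment of at least 10. The cause of these shifts was not tested, except that the filters leave fewer peaks. All exon peaks lay over 3 kb from a start, so that alternative changed nothing. Of 150 alternative values for 30 named peaks, 149 stayed within the counting interval and 0 of the peaks past 2-fold changed direction. The exception was Tpm1, -0.58 on the RPM scale against -0.41. These settings moved the median of all peaks by -0.17 to 0.058. Most of the intervals reached further than that from the ratio, so this count is a weak check. Another overlap rule for merging peaks was not run. No paired analysis was possible because each genotype has 1 library. Depth limits single peaks: Camk2d, near the median with 57 counts in CKO and 58 in control, had an interval of 0.700 to 1.51.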

Other observations

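Of the 16 exon peaks called in both libraries and past 2-fold, chosen after their values were seen, 14 were in genes with a symbol. Lower in CKO were peaks in Tnr, which encodes tenascin-R (49 counts in CKO, 127 in control), Sec14l5 (78 in CKO, 181 in control), the spliceosomal helicase gene Aqr (45 in CKO, 102 in control) and Sars, the seryl-tRNA synthetase (40 in CKO, 88 in control). Ppp1r12b, a regulatory subunit of myosin phosphatase, had 51 counts in CKO and 111 in control, and Tg, thyroglobulin, had 46 in CKO and 99 in control. Tnr and Ppp1r12b each had another exon peak that was higher in CKO. That of Tnr, in exon 14 of 23 and called in both libraries, had 94 counts in CKO and 57 in control (ratio 1.72, 1.23 to 2.44). That of Ppp1r12b, in exon 2 of 24, had 43 in CKO and 34 in control, and its interval held 1. Higher in CKO were peaks in the transcription factor gene Ebf3 (178 counts in CKO, 90 in control), Garem2 (175 in CKO, 89 in control), the Elongator acetyltransferase gene Elp3 (123 in CKO, 64 in control) and the kinase gene Mast2 (56 in CKO, 27 in control). The strongest promoter peaks of Ebf3, Elp3 and Mast2 had log2 ratios of -0.041, 0.11 and -0.095.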
